A study of Mus musculus with 12 samples.

Results

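The genes described here are 54 developmental transcription factors and their coactivators, given as a list of symbols and found by symbol in the deposited count matrix, 54 of its 43280 symbols. The list takes in homeobox genes of the jaw, teeth and face (Dlx, Msx, Pitx, Barx, Lhx, Pax9, Alx and Prrx genes), the Iroquois genes, the sine oculis genes Six2, Six4 and Six5 with their Eya coactivators, T-box and forkhead genes, the bHLH genes Twist1, Twist2, Tcf21 and Ascl3, the COUP nuclear receptors Nr2f1 and Nr2f2, and the basonuclins. Of the 54, 41 were counted highly enough to be tested and 13 were not. The question put to each was whether its RNA went with epithelium or with mesenchyme across the sort. By the test defined below, 13 went with the epithelium markers, 20 with the mesenchyme markers and 8 with neither. Markers of neurons and leukocytes lay on the same side as the mesenchyme markers, so the test does not separate mesenchyme from those cells.

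The RNA came from submandibular salivary glands of mouse embryos of the strain Tg(KRT5-Venus)1Sgkd at embryonic day 15. In these mice Venus, a fluorescent protein, reports the activity of the promoter of keratin 5 (K5), a keratin of basal epithelial cells. All populations were sorted as E-cadherin positive, and they were divided by Venus and by Kit, a receptor tyrosine kinase, into Kit+ K5+, Kit+ K5-, Kit- K5+ and also Kit- K5- cells, with 3 libraries each. No treatment or deletion separated the populations, and nothing in the labels says that the 3 libraries of a population came from separate animals or litters, so p-values measure the spread between these libraries.

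A salivary gland forms as an epithelial bud of the oral lining grows and branches into a mesenchyme that derives largely from the neural crest. In the face and jaw, Dlx, Msx, Barx, Alx, Prrx and Twist genes are known for patterning that mesenchyme, while Iroquois, Foxa and Foxp genes are known from many branching or surface epithelia. Sine oculis proteins bind DNA and Eya proteins are their coactivators, and many of these factors come as paralogues that share a DNA-binding domain and are used in different tissues.

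Values are CPM, read counts scaled to library size, after TMM scaling, which sets the libraries to a common level by the bulk of their genes. The 12 libraries held 5589037 to 13724364 counts. The labelled cell type was examined with 18 general epithelium genes and 16 mesenchyme genes (collagens, Pdgfra, Lum, Dcn and others). The 18 epithelium genes summed to 1824 to 3423 CPM among Kit+ K5+, 1787 to 2957 among Kit+ K5-, 1643 to 1907 among Kit- K5+ and 492 to 628 among Kit- K5- libraries. The 16 mesenchyme genes summed to 678 to 971 CPM among Kit+ K5+, 525 to 808 among Kit+ K5-, 877 to 1337 among Kit- K5+ and 12006 to 21022 among Kit- K5- libraries, and no gene of either list was at 0 counts in any population. The Kit- K5- libraries, though sorted as E-cadherin positive, thus held more mesenchyme RNA and less epithelium RNA than the other 9 by these lists. Sums of different genes do not say which of the 2 prevailed within a library. The Kit- K5- libraries also stood apart in markers of other cells. Neuron markers summed to at most 14.5 CPM in the other 9 libraries and to 74.0 to 172 CPM in Kit- K5-, and 10 of 10 leukocyte markers, 4 of 5 tested erythroid markers and 4 of 6 tested endothelium markers were lower in the mean of the other populations by the test given next. Kit+ K5- libraries also held leukocyte RNA, with 48.5 to 486 CPM summed over the 10 markers against 139 to 949 CPM in Kit- K5-, and 2 of the 10 were lower there. Kit+ K5- libraries held mast cell RNA, with 116 to 4734 CPM summed over 6 markers, against 15.9 to 35.7 CPM in Kit- K5-, and 5 of the 6 were higher in Kit+ K5- against Kit- K5-. Mitochondrial transcripts took 10.96% to 30.9% of counts in the 9 marker-positive libraries and 5.59% to 12.2% in Kit- K5-. In sorted bulk RNA, fewer cells of a type and less RNA per cell cannot be told apart.

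To place each gene, the mean of the populations positive for Kit, Venus or both (the 3 marker-positive populations, 9 libraries) was set against Kit- K5-. A gene was called at an adjusted p under 0.05 by edgeR's quasi-likelihood test with Benjamini-Hochberg adjustment over the 17030 genes tested, and every adjusted p below comes from this test. Differences are on the log2 scale, marker-positive minus Kit- K5-, with the standard error (SE) implied by the test statistic. Of all genes tested, 12.7% were called higher and 16.9% lower in the marker-positive populations. Of the 41 tested factors 13 were called higher and 20 lower. Over these 41 the median difference was -1.43, against 0.01 over all genes tested. Of the 41, 10 reached the count minimum through the Kit- K5- libraries alone (Dlx1, Dlx2, Dlx5, Msx1, Lhx6, Lhx8, Prrx2, Tbx2, Twist1 and Twist2), so they could be tested only because they were high there, and neither the count of lower genes nor the median can be read as support for a pattern. Foxi1 reached that level in 8 marker-positive and 0 Kit- K5- libraries, so its place among the higher factors has the same limit. On the same contrast, 16 of 16 mesenchyme markers were lower, with differences of -5.68 to -1.84, and 14 of 18 general epithelium markers were higher, the 18 lying between 1.16 and 2.52. The 20 lower factors ranged from -5.93 to -1.01 and the 13 higher factors from 1.40 to 3.68. On this contrast 9 of 9 tested neuron markers (median -4.10) and 10 of 10 leukocyte markers (median -4.24) were lower too. So were 5 of 8 pericyte and smooth muscle markers, but 0 of 6 mast cell markers. The mesenchyme side therefore means higher in Kit- K5-, and it does not separate mesenchyme from other cells there. A placement says how RNA was spread over the sort, and the cells that made the RNA were not observed.

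**Figure D1:**
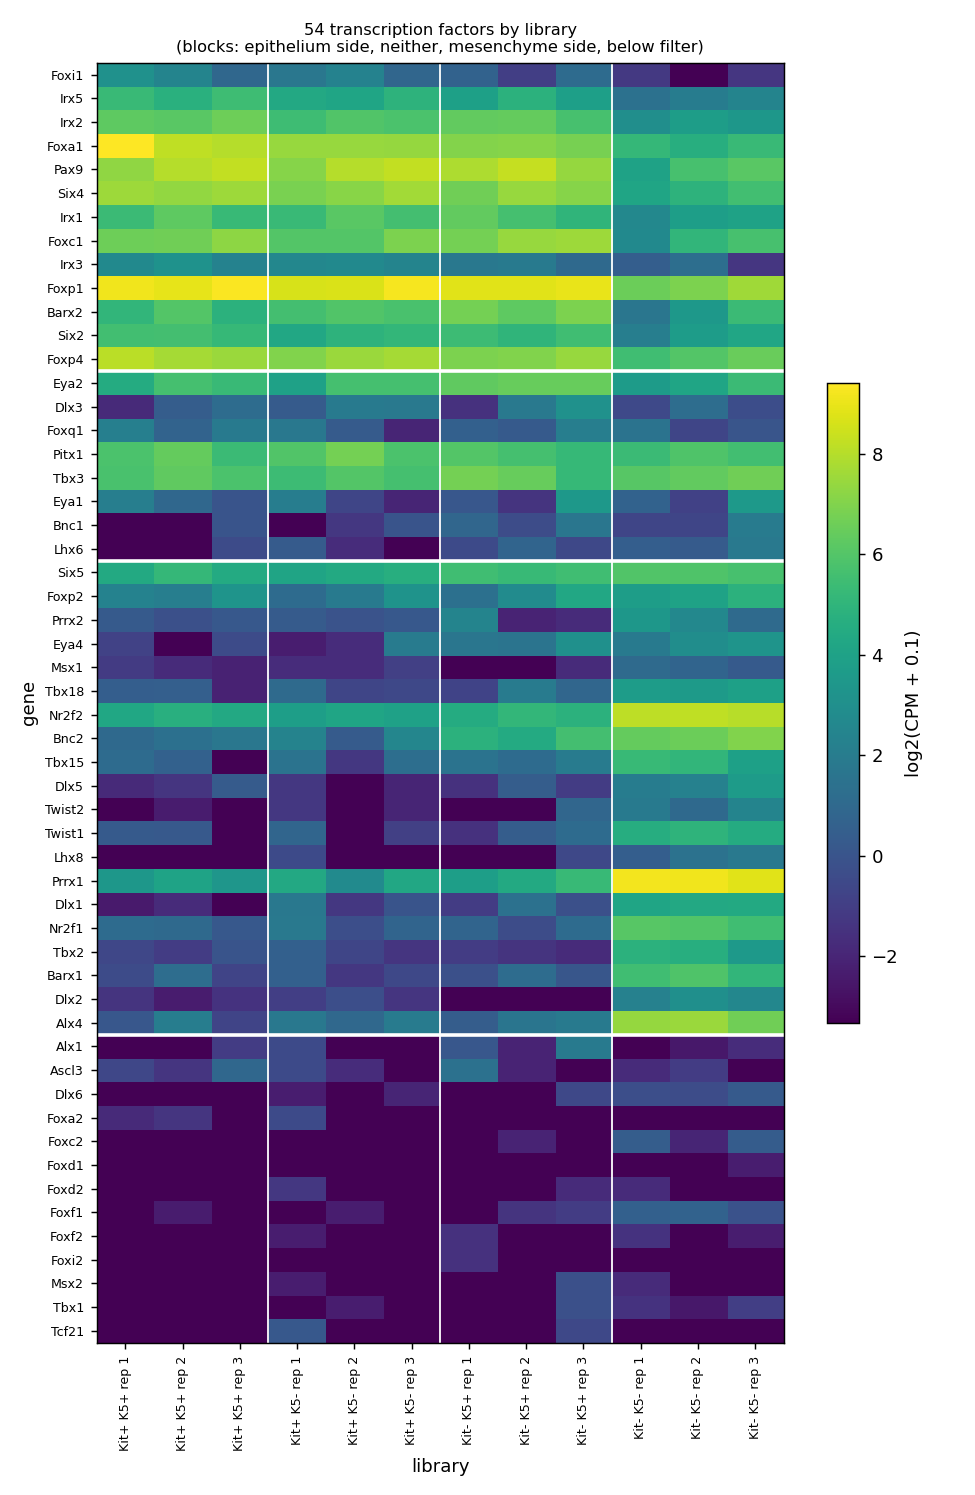
Heat map of log2(CPM + 0.1) for the 54 factors (rows) in the 12 libraries (columns, by population and replicate), with white lines between populations and between the epithelium side, neither side, the mesenchyme side and the genes below the count minimum. The 3 Kit- K5- columns at the right all lie below the rest in 11 of the 13 epithelium-side rows (not Barx2 and Irx3) and above the rest in 17 of the 20 mesenchyme-side rows (not Prrx2, Eya4 and Foxp2).

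**Figure D2:**
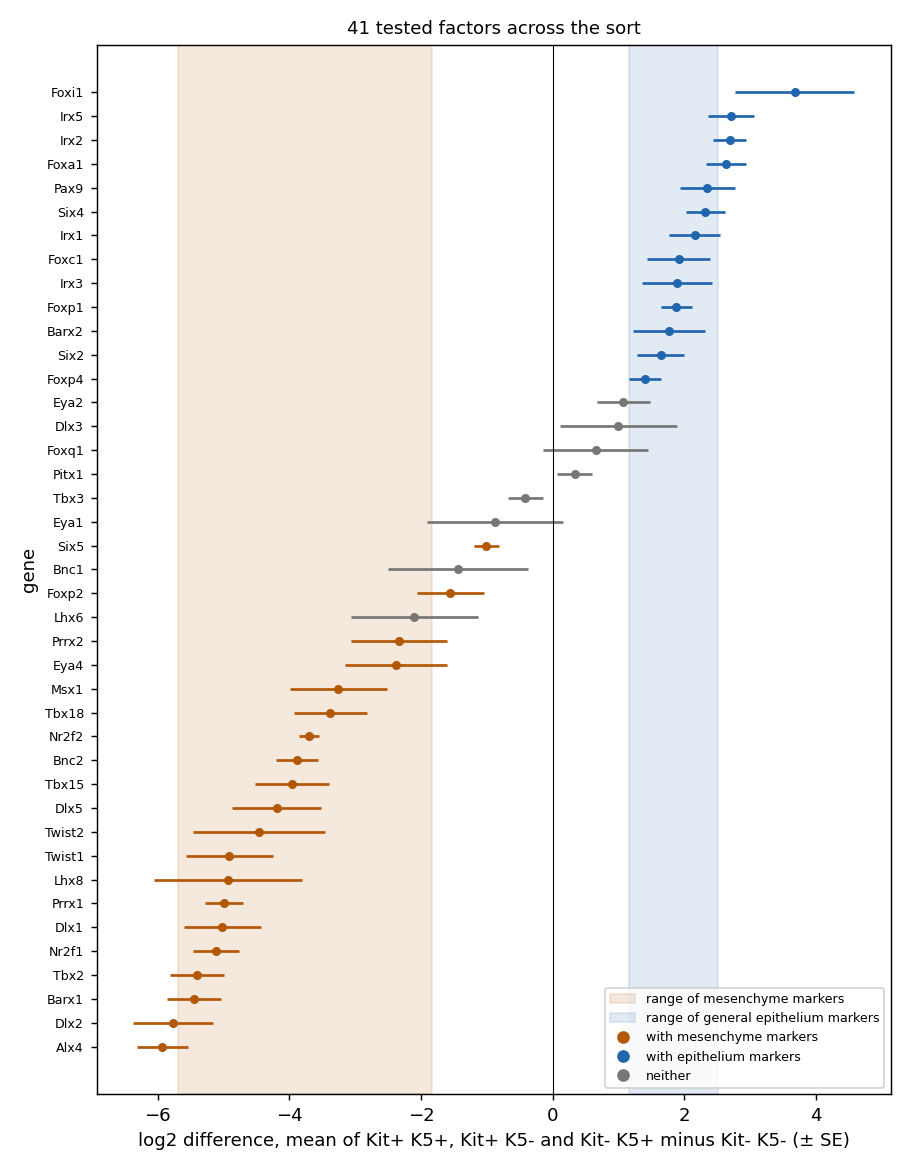
Log2 difference (points, with SE bars) of the mean of Kit+ K5+, Kit+ K5- and Kit- K5+ minus Kit- K5- for the 41 tested factors, with shaded bands for the ranges of the 16 mesenchyme and 18 general epithelium markers. Alx4, at -5.93, and Foxi1, at 3.68, are the ends of the list, and Foxi1 reached the count minimum in marker-positive libraries alone. On the mesenchyme side Foxp2 and Six5 lie above the band of its markers and Alx4 and Dlx2 below it. The Dlx2 point was fitted with 0 counts in Kit- K5+. By summed counts Dlx2 had a log2 ratio of 4.61 for Kit- K5- over the 9 marker-positive libraries, a size within that band.

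Levels of different genes were compared per kb of exon. In Kit+ K5+ cells the highest of the 54 was Foxa1, at 124 CPM per kb, ahead of Pax9 at 47.2, Foxp4 at 45.2 and Foxp1 at 41.1. In Kit- K5- cells the highest was Prrx1, at 48.2 CPM per kb, ahead of Barx1 at 33.1, Nr2f2 at 32.3 and Alx4 at 21.3. The promoters of the leading pair on each side are shown as the DNA next to the RefSeq start of the most abundant factors. They are the 250 bases before the RefSeq start (GRCm38.p6), written 5′ to 3′ on the gene's strand, for Foxa1 at chr12:57546112-57546361 (minus strand), Pax9 at chr12:56695221-56695470 (plus), Prrx1 at chr1:163313651-163313900 (minus) and Barx1 at chr13:48662786-48663035 (plus). In each of these genes the RefSeq start lies inside the gene as GENCODE M21 draws it, by 805 bases in Foxa1, 3704 in Pax9, 60 in Prrx1 and 38 in Barx1, so for Pax9 and Foxa1 the window is within the annotated gene. Capitals mark matches to the motifs searched.
Foxa1: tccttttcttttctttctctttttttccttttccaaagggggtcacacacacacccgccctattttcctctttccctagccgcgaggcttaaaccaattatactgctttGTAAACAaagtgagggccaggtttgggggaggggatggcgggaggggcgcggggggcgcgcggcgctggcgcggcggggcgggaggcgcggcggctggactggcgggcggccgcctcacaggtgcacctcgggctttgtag
Pax9: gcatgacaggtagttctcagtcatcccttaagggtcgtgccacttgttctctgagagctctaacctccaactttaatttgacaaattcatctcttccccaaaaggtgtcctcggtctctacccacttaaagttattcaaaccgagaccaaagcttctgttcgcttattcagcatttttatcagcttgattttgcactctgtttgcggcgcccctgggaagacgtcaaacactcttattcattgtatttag
Prrx1: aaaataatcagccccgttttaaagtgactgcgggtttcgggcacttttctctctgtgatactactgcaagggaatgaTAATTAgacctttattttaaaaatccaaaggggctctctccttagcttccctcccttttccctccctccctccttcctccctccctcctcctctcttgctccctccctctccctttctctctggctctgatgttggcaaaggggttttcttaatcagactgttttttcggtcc
Barx1: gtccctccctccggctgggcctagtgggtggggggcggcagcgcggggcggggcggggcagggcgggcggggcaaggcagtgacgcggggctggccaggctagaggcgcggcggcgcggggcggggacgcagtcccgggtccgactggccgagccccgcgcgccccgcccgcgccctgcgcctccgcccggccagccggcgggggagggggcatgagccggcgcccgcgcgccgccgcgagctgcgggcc

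The motifs searched, on both strands, were TGTTTAC (a forkhead core), TAATTA (a homeodomain core), CATCTG (an E-box form) and AACCGG (a grainyhead core), and no printed window held more than 1 of them. Of all promoters of this length in the table, 3.17% held TGTTTAC, 4.84% TAATTA, 14.4% CATCTG and 5.62% AACCGG. Windows were given for 36 of the 54 factors, of which 2 held TGTTTAC, 4 TAATTA, 3 CATCTG and 3 AACCGG. Some factors had several windows and were counted if any of them held the motif. The shares over all promoters are per window, so the 2 measures cannot be set against each other directly. Foxa1, itself a forkhead gene, held GTAAACA, which is TGTTTAC read on the other strand, and Prrx1, itself a homeobox gene, held TAATTA. Pax9 and Barx1 held none, which says only that these letters are not in this window. The windows also differed in CpG count, with 21 in Foxa1, 7 in Pax9, 4 in Prrx1 and 40 in Barx1, against a median of 6 over all promoters. A match is a description of the sequence, and no binding was measured.

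Prrx1, a homeobox gene known as a marker of craniofacial and limb mesenchyme (chromosome 1, 163245119 to 163313710), had 10.6, 16.7 and 10.2 CPM for Kit+ K5+, 20.4, 6.85 and 19.5 for Kit+ K5-, 13.9, 21.3 and 37.9 for Kit- K5+ and 581, 561 and 459 for Kit- K5-. The 3 Kit- K5- libraries lay far above the other 9, and the difference was -4.99 ± 0.29, adjusted p = 2.76e-08. Alx4, a homeobox gene that patterns the skull and limbs, had 1.01, 4.15 and 0.517 CPM for Kit+ K5+, 3.38, 1.90 and 3.79 for Kit+ K5-, 1.25, 3.02 and 3.63 for Kit- K5+ and 167, 184 and 101 for Kit- K5-. Its difference of -5.93 ± 0.38 was the lowest of the 41 (adjusted p = 8.65e-08), and the libraries did not overlap. Prrx2, the close relative of Prrx1, had 1.11, 0.771 and 1.03 CPM for Kit+ K5+, 1.16, 0.843 and 1.02 for Kit+ K5-, 5.25, 0.137 and 0.191 for Kit- K5+ and 10.5, 6.13 and 2.04 for Kit- K5-. It was lower in the marker-positive populations (-2.33 ± 0.73, adjusted p = 0.0271), but its Kit- K5+ replicate 1 stood above a Kit- K5- library, so the groups overlapped, and the call ended without Kit- K5- replicate 1 (adjusted p = 0.215) or replicate 2 (adjusted p = 0.0754). Alx1 was not tested, with 37 counts in the 9 marker-positive libraries and 3 in the Kit- K5- libraries, and 19 of those counts came from Kit- K5+ replicate 3.

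The COUP nuclear receptors, orphan receptors known for mesenchyme and vessel patterning, were both on the mesenchyme side. Nr2f2 (chromosome 7, 70351944 to 70366735) had 19.5, 26.2 and 20.7 CPM for Kit+ K5+, 13.8, 17.7 and 15.7 for Kit+ K5-, 22.5, 34.1 and 28.5 for Kit- K5+ and 283, 292 and 262 for Kit- K5-. Its libraries were tight within each population, and its difference of -3.70 ± 0.15 had an adjusted p of 5.77e-09, the smallest of all genes tested. Nr2f1 had 2.12, 1.93 and 1.03 CPM for Kit+ K5+, 3.49, 0.737 and 1.60 for Kit+ K5-, 1.63, 0.687 and 2.10 for Kit- K5+ and 68.5, 62.6 and 45.4 for Kit- K5-, with no overlap and a difference of -5.11 ± 0.35, adjusted p = 1.51e-07.

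Among the jaw and tooth homeobox genes, 6 were on the mesenchyme side, 2 on the epithelium side, 3 on neither and 2 untested. Barx1, known from molar tooth and stomach mesenchyme (chromosome 13, 48662998 to 48666507), had 0.646, 2.22 and 0.517 CPM for Kit+ K5+, 1.37, 0.316 and 0.583 for Kit+ K5-, 0.750, 2.20 and 0.956 for Kit- K5+ and 45.6, 60.4 and 32.9 for Kit- K5-, a difference of -5.45 ± 0.42, adjusted p = 4.12e-07. The Dlx genes pattern the upper and lower jaw. Dlx1 had 0.0922, 0.193 and 0 CPM for Kit+ K5+, 3.38, 0.316 and 0.874 for Kit+ K5-, 0.375, 2.61 and 0.765 for Kit- K5+ and 17.6, 20.4 and 21.1 for Kit- K5- (-5.01 ± 0.59, adjusted p = 2.67e-05). Dlx2 had 0, 0.258 and 0.737 CPM (lowest, median and highest) in the 9 marker-positive libraries and 4.72, 7.97 and 5.92 CPM in Kit- K5-, and all 3 Kit- K5+ libraries were at 0. Over the whole groups its level in Kit- K5- was 24.4-fold (95% interval 15.3 to 41.2) that in the 9 marker-positive libraries, and at least 42.1-fold that in Kit- K5+, taking 3 counts over that group as its ceiling (intervals cover counting error only). Dlx5 had 0.184, 0.289 and 1.16 CPM for Kit+ K5+, 0.317, 0 and 0.146 for Kit+ K5-, 0.250, 1.24 and 0.383 for Kit- K5+ and 3.93, 4.75 and 12.6 for Kit- K5- (-4.19 ± 0.68, adjusted p = 4.22e-04). For these 3 Dlx genes the Kit- K5- libraries lay above the other 9. The untested Dlx6, a neighbour of Dlx5 with a role in the lower jaw, had 5 counts in the 9 marker-positive libraries and 31 in the Kit- K5- libraries.

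Msx1, a homeobox gene of tooth mesenchyme, had 0, 0.193 and 0.437 CPM in the 9 and 2.03, 1.61 and 1.12 CPM in Kit- K5-, and Lhx8, a LIM homeobox gene of the oral mesenchyme, had 0, 0 and 0.634 CPM in the 9 and 1.31, 2.68 and 3.47 CPM in Kit- K5-. Both were low everywhere. Msx1 differed by -3.26 ± 0.74, adjusted p = 0.00459, and without Kit- K5- replicate 1 its call ended (adjusted p = 0.0578). Its untested paralogue Msx2 had 5 counts in the 9 marker-positive libraries and 3 in the Kit- K5- libraries. Lhx8, with 0 counts in all 3 Kit+ K5+ libraries, stood 19.6-fold (95% interval 9.85 to 44.2) higher in Kit- K5- by summed counts. Lhx6, its relative with overlapping roles in the jaw, had 0, 0.574 and 1.65 CPM in the 9 and 1.31, 1.15 and 3.47 CPM in Kit- K5-, and its difference of -2.10 ± 0.96 did not pass (adjusted p = 0.118).

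The epithelium side of this family held Barx2 and Pax9, though neither was called when scaled to epithelium genes, where Barx2 lay at -0.083 and the median over all genes at -1.96. Barx2, the paralogue of Barx1, is known from glandular and muscle development and had 33.1, 64.8 and 29.2 CPM for Kit+ K5+, 48.3, 62.3 and 54.6 for Kit+ K5-, 107, 75.3 and 119 for Kit- K5+ and 3.15, 10.96 and 40.8 for Kit- K5-. Kit- K5- replicate 3 lay within the range of the other 9 libraries, and the difference was 1.76 ± 0.55, adjusted p = 0.0268, a call that ended without Kit- K5- replicate 1 (adjusted p = 0.0651) or replicate 2 (adjusted p = 0.123) and was larger, at 3.12, without replicate 3. Pax9, a paired box gene known from pharyngeal epithelium and tooth mesenchyme (chromosome 12, 56691767 to 56712822), had 155, 254 and 306 CPM for Kit+ K5+, 135, 253 and 299 for Kit+ K5-, 231, 313 and 168 for Kit- K5+ and 16.1, 51.9 and 70.4 for Kit- K5-. All 9 marker-positive libraries stood above Kit- K5-, by 2.35 ± 0.42, adjusted p = 9.45e-04. Pitx1, a homeobox gene of oral epithelium and hindlimb, had 56.7, 84.7 and 41.5 CPM for Kit+ K5+, 61.1, 108 and 55.8 for Kit+ K5-, 63.8, 51.2 and 37.1 for Kit- K5+ and 40.3, 59.4 and 46.5 for Kit- K5-. The 4 populations overlapped, and its difference of 0.34 ± 0.26 did not pass (adjusted p = 0.370). Dlx3, known from epidermis and placenta, had 0.184, 2.20 and 8.61 CPM (lowest, median and highest) in the 9 marker-positive libraries and 0.590, 2.22 and 0.715 CPM in Kit- K5-, with wide scatter (adjusted p = 0.436).

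All 4 Iroquois genes were called higher in the marker-positive populations under TMM scaling, while scaled to epithelium genes none of them was called and Irx3 lay at -0.16, above the median of -1.96 over all genes. Irx2 had 76.9, 71.4 and 97.0 CPM for Kit+ K5+, 44.3, 63.1 and 55.3 for Kit+ K5-, 80.5, 85.3 and 51.5 for Kit- K5+ and 7.74, 13.5 and 10.6 for Kit- K5-. These differed by 2.69 ± 0.25, adjusted p = 3.31e-06, and the lowest marker-positive library was above the highest Kit- K5- library. Irx1, its neighbour in the same gene cluster, had 40.3, 76.1 and 38.4 CPM for Kit+ K5+, 40.2, 71.7 and 48.4 for Kit+ K5-, 82.5, 50.4 and 32.5 for Kit- K5+ and 5.97, 13.8 and 16.2 for Kit- K5- (2.16 ± 0.39, adjusted p = 9.55e-04). Irx5 had 39.6, 27.4 and 43.8 CPM for Kit+ K5+, 20.2, 17.8 and 30.4 for Kit+ K5-, 15.1, 29.4 and 14.7 for Kit- K5+ and 2.62, 3.98 and 5.21 for Kit- K5-, again without overlap (2.70 ± 0.35, adjusted p = 6.59e-05). Irx3, which shares the other Iroquois cluster with Irx5, was the lowest of the family, with 6.46, 8.87 and 4.91 CPM for Kit+ K5+, 5.92, 6.53 and 5.24 for Kit+ K5-, 3.38, 3.71 and 1.91 for Kit- K5+ and 1.31, 2.30 and 0.306 for Kit- K5-. Kit- K5+ replicate 3 and Kit- K5- replicate 2 overlapped for Irx3, and its difference was 1.89 ± 0.54, adjusted p = 0.0170. That call ended without Kit- K5- replicate 1 (adjusted p = 0.0741) or replicate 3 (adjusted p = 0.0644).

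The sine oculis and Eya genes fell on both sides. Six4 had 189.8, 164 and 189.9 CPM for Kit+ K5+, 117, 144 and 198 for Kit+ K5-, 102, 174 and 139 for Kit- K5+ and 18.0, 29.7 and 46.6 for Kit- K5-, and its 9 marker-positive libraries stood above Kit- K5- by 2.32 ± 0.29, adjusted p = 5.25e-05. Six2, known from nephron progenitors, had 46.5, 49.5 and 37.3 CPM for Kit+ K5+, 20.1, 29.7 and 33.9 for Kit+ K5-, 42.3, 32.6 and 45.3 for Kit- K5+ and 4.20, 13.2 and 18.2 for Kit- K5- (1.64 ± 0.36, adjusted p = 0.00365). Six5 ran the other way, with 20.9, 35.6 and 22.4 CPM for Kit+ K5+, 17.0, 21.4 and 25.2 for Kit+ K5-, 45.4, 37.6 and 45.7 for Kit- K5+ and 62.0, 59.0 and 52.8 for Kit- K5-. Its difference of -1.01 ± 0.19 (adjusted p = 0.00129) was the smallest in size of the 33 calls, with Kit- K5+ nearer to Kit- K5- than the Kit+ populations were. Scaled to epithelium genes, Six2 lay at -0.28, above the median of all genes, while Six4 kept its sign. Six5 stayed below 0, as this scaling moves differences downward.

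Eya2 had 22.5, 50.4 and 39.4 CPM for Kit+ K5+, 15.5, 50.3 and 50.8 for Kit+ K5-, 79.9, 86.5 and 87.2 for Kit- K5+ and 12.7, 17.9 and 40.5 for Kit- K5-. All 3 Kit- K5+ libraries lay above the other 9, and the mean of the 3 marker-positive populations did not pass against Kit- K5- (1.07 ± 0.40, adjusted p = 0.0583). With a block on runs of libraries, which called 16.8% of all genes higher, it did (adjusted p = 0.00674). Eya4, an Eya gene known from hearing, had 0.461, 0 and 0.646 CPM for Kit+ K5+, 0.106, 0.211 and 3.79 for Kit+ K5-, 3.13, 2.88 and 8.23 for Kit- K5+ and 3.74, 7.36 and 9.60 for Kit- K5-. Its marker-positive libraries as a whole were lower, with a difference of -2.38 ± 0.78, adjusted p = 0.0327, and Kit- K5+ overlapped Kit- K5-. Leaving out Kit- K5+ replicate 1 or 2, or Kit- K5- replicate 2 or 3, ended that call (largest adjusted p = 0.133). Eya1, known from branchial arch and kidney development, had 0.146, 1.00 and 10.9 CPM (lowest, median and highest) in the 9 marker-positive libraries and 1.51, 0.460 and 11.8 CPM in Kit- K5- and was called in neither direction (adjusted p = 0.564).

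Of the T-box genes, Tbx2, Tbx15 and Tbx18 were on the mesenchyme side. Tbx2 had 0.553, 0.386 and 0.904 CPM for Kit+ K5+, 1.37, 0.527 and 0.291 for Kit+ K5-, 0.375, 0.275 and 0.191 for Kit- K5+ and 28.7, 25.4 and 11.9 for Kit- K5-, with no overlap (-5.40 ± 0.42, adjusted p = 4.36e-07). Its paralogue Tbx3, known from mammary and limb development, had 53.5, 78.9 and 55.0 CPM for Kit+ K5+, 41.7, 63.6 and 51.3 for Kit+ K5-, 109, 87.9 and 36.5 for Kit- K5+ and 69.7, 83.1 and 100.4 for Kit- K5-. Tbx3 was abundant in all populations, its groups overlapped and its difference of -0.41 ± 0.26 did not pass (adjusted p = 0.261). Tbx15, a T-box gene of skeletal mesenchyme and dermis, had 2.12, 1.45 and 0 CPM for Kit+ K5+, 2.75, 0.316 and 2.33 for Kit+ K5-, 2.75, 2.06 and 3.83 for Kit- K5+ and 38.0, 33.1 and 15.1 for Kit- K5- (-3.95 ± 0.56, adjusted p = 1.51e-04). Tbx18, known from ureter and heart mesenchyme, had 1.29, 1.35 and 0.129 CPM for Kit+ K5+, 2.01, 0.527 and 0.583 for Kit+ K5-, 0.500, 3.85 and 1.72 for Kit- K5+ and 12.9, 12.03 and 14.9 for Kit- K5- (-3.38 ± 0.55, adjusted p = 4.75e-04). Exons of another gene on the opposite strand cover 20.6% of its exon length, and no strand setting is stated in the sources used here. Tbx1, a T-box gene of pharynx and teeth, was not tested, with 5 counts in the 9 marker-positive libraries and 9 in the Kit- K5- libraries.

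The bHLH genes Twist1 and Twist2, which mark early mesenchyme, were near or at 0 in many marker-positive libraries. Twist1 had 1.11, 1.06 and 0 CPM for Kit+ K5+, 1.69, 0 and 0.437 for Kit+ K5-, 0.250, 1.24 and 2.10 for Kit- K5+ and 24.7, 30.6 and 22.9 for Kit- K5- (-4.91 ± 0.66, adjusted p = 8.74e-05). Twist2 had 0, 0 and 1.72 CPM in the 9 and 3.61, 1.92 and 5.21 CPM in Kit- K5-, and by summed counts it stood 18.5-fold (95% interval 10.6 to 34.8) higher in Kit- K5-. An antisense gene covers 46.5% of the exon length of Twist2, and without a stated strand setting the reads of the pair cannot be told apart. Tcf21, a bHLH factor of kidney, lung and heart mesenchyme, was not tested and had 13 counts in the 9 marker-positive libraries and 0 in the Kit- K5- libraries, where mesenchyme markers were highest. Of those counts 10 came from Kit+ K5- replicate 1 and 3 from Kit- K5+ replicate 3, so no direction can be read from them. Ascl3, known from salivary duct precursors and ionocytes, had 53 counts in the 9 marker-positive libraries and 8 in the Kit- K5- libraries and was not tested.

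The forkhead genes made up much of the epithelium side under TMM scaling, and under scaling to epithelium genes Foxp1 and Foxp4 were just below 0 but above the median of all genes, as given below. Foxa1, a pioneer factor that opens chromatin in endoderm, prostate and breast (chromosome 12, 57540628 to 57546916), had 682, 293 and 258 CPM for Kit+ K5+, 176, 176 and 167 for Kit+ K5-, 133, 136 and 112 for Kit- K5+ and 36.1, 24.9 and 39.6 for Kit- K5-. All 9 marker-positive libraries lay above Kit- K5-, by 2.64 ± 0.30, adjusted p = 2.12e-05. Kit+ K5+ replicate 1 was the highest library. Foxp1, a repressor known from lung and lymphocytes, had 556, 488 and 652 CPM for Kit+ K5+, 404, 409 and 602 for Kit+ K5-, 451, 464 and 503 for Kit- K5+ and 94.5, 119 and 197 for Kit- K5- (1.88 ± 0.24, adjusted p = 5.04e-05). Foxp4, its partner in lung and gut epithelium, had 278, 209 and 181 CPM for Kit+ K5+, 129, 182 and 211 for Kit+ K5-, 121, 127 and 172 for Kit- K5+ and 45.8, 63.1 and 91.0 for Kit- K5- (1.40 ± 0.24, adjusted p = 7.48e-04). Foxc1, known from neural crest mesenchyme and the lacrimal gland, had 98.2, 101 and 154 CPM for Kit+ K5+, 63.4, 64.0 and 120.2 for Kit+ K5-, 107, 173 and 185 for Kit- K5+ and 6.43, 33.0 and 52.2 for Kit- K5- (1.91 ± 0.47, adjusted p = 0.00785). For these 4 the marker-positive libraries did not overlap Kit- K5-. Foxi1, the regulator of ionocytes, was low, at 8.67, 5.30 and 1.81 CPM for Kit+ K5+, 3.17, 4.84 and 1.75 for Kit+ K5-, 1.50, 0.412 and 2.10 for Kit- K5+ and 0.328, 0 and 0.306 for Kit- K5- (3.68 ± 0.91, adjusted p = 0.00764). Of 6 ionocyte markers, which include Foxi1 and Ascl3, 2 were counted highly enough to be tested.

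Foxp2, the paralogue of Foxp1 and Foxp4, had 4.89, 4.24 and 9.43 CPM for Kit+ K5+, 2.11, 3.58 and 9.32 for Kit+ K5-, 2.50, 6.87 and 19.9 for Kit- K5+ and 13.5, 16.1 and 29.1 for Kit- K5-. It was lower in the marker-positive populations (-1.55 ± 0.51, adjusted p = 0.0335), with overlap and with replicate 3 the highest of its population in all 4. Leaving out any 1 of 7 libraries ended the call of Foxp2, namely all 3 of Kit- K5-, replicates 1 and 2 of Kit+ K5+, and replicate 2 of Kit+ K5- and of Kit- K5+ (largest adjusted p = 0.194). Foxq1 had 0.146, 1.54 and 4.43 CPM (lowest, median and highest) in the 9 marker-positive libraries and 2.75, 0.536 and 0.919 CPM in Kit- K5- and was called in neither direction (adjusted p = 0.575). A gene on the opposite strand covers 66.1% of its exon length. The other 7 forkhead genes were not tested. Of these Foxc2, the paralogue of Foxc1, had 1 count in the 9 marker-positive libraries and 33 in the Kit- K5- libraries, a ratio of 65.3-fold (95% interval 10.9 to 2655), and Foxf1, a factor of gut and lung mesenchyme, had 6 counts in the 9 marker-positive libraries and 49 in the Kit- K5- libraries. Foxa2, Foxd1, Foxd2, Foxf2 and Foxi2 had at most 11 counts over the 9 marker-positive libraries and at most 5 over the 3 Kit- K5- libraries.

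Basonuclins are zinc finger proteins of skin and connective tissue. Bnc2 (chromosome 4, 84275095 to 84675275) had 1.94, 2.51 and 3.23 CPM for Kit+ K5+, 5.07, 1.16 and 5.68 for Kit+ K5-, 28.5, 22.1 and 48.2 for Kit- K5+ and 83.4, 93.6 and 128 for Kit- K5-. Against Kit- K5- the marker-positive mean was lower, with a difference of -3.88 ± 0.32, adjusted p = 7.72e-07, but the populations formed 3 levels that did not overlap, with Kit- K5+ between the Kit+ populations and Kit- K5-. Bnc1, known from basal keratinocytes and germ cells, had 0, 0.687 and 3.06 CPM (lowest, median and highest) in the 9 marker-positive libraries and 0.525, 0.536 and 3.78 CPM in Kit- K5- and was called in neither direction (adjusted p = 0.339).

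Counted by library, 17 of the 20 mesenchyme-side factors had all 3 Kit- K5- libraries above the other 9, with overlap for Prrx2, Eya4 and Foxp2, and on the epithelium side 11 of 13 had all 3 Kit- K5- libraries below the other 9, with overlap for Barx2 and Irx3. Of all genes tested, 19.7% had the Kit- K5- libraries all above or all below the other 9. These orders rest on the libraries that made the calls and are not separate support. Within each of the 3 runs of library numbers, each run holding every population, all 20 were lower and all 13 higher in the marker-positive mean. The factors were picked by calls on these same libraries, and where libraries do not overlap the direction in each run is fixed. The directions by run are therefore not separate support either.

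The epithelium side depended on the scaling. Where the libraries were set level by the summed counts of the 18 general epithelium genes, the median over all genes tested moved to -1.96, and 1 factor was called higher (Foxa1, 0.63 ± 0.27, adjusted p = 0.0391) and 25 lower, where 0.17% of all genes were higher and 81.9% lower. Relative to that median, Foxa1 lay above and Pitx1, at -1.67, also lay above, while Tbx3, at -2.37, lay below. By that scaling Barx2, Foxp1, Foxp4, Irx3 and Six2 had differences below 0, between -0.54 and -0.03, none of them called and all above that median. The 20 mesenchyme-side factors kept their sign, but this scaling moved differences downward, so factors already below 0 had to stay there. In Kit- K5+ against Kit- K5- this scaling called 1 factor higher, beside 0.74% of all genes. In Kit+ K5- against Kit- K5- it called 0 factors higher, beside 0.229% of all genes, and 25 lower, beside 73.9% of all genes.

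Paralogues on opposite sides were Barx2 and Barx1, Six2 and Six4 with Six5, and Foxp1 and Foxp4 with Foxp2, with the epithelium-side member named ahead in each under TMM scaling, and with Barx2, Six2, Foxp1 and Foxp4 between -0.54 and -0.03, not called, when scaled to epithelium genes, above the median of -1.96 over all genes. Tbx3 with Tbx2 and Eya2 with Eya4 were split between neither side and the mesenchyme side.

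**Figure D3:**
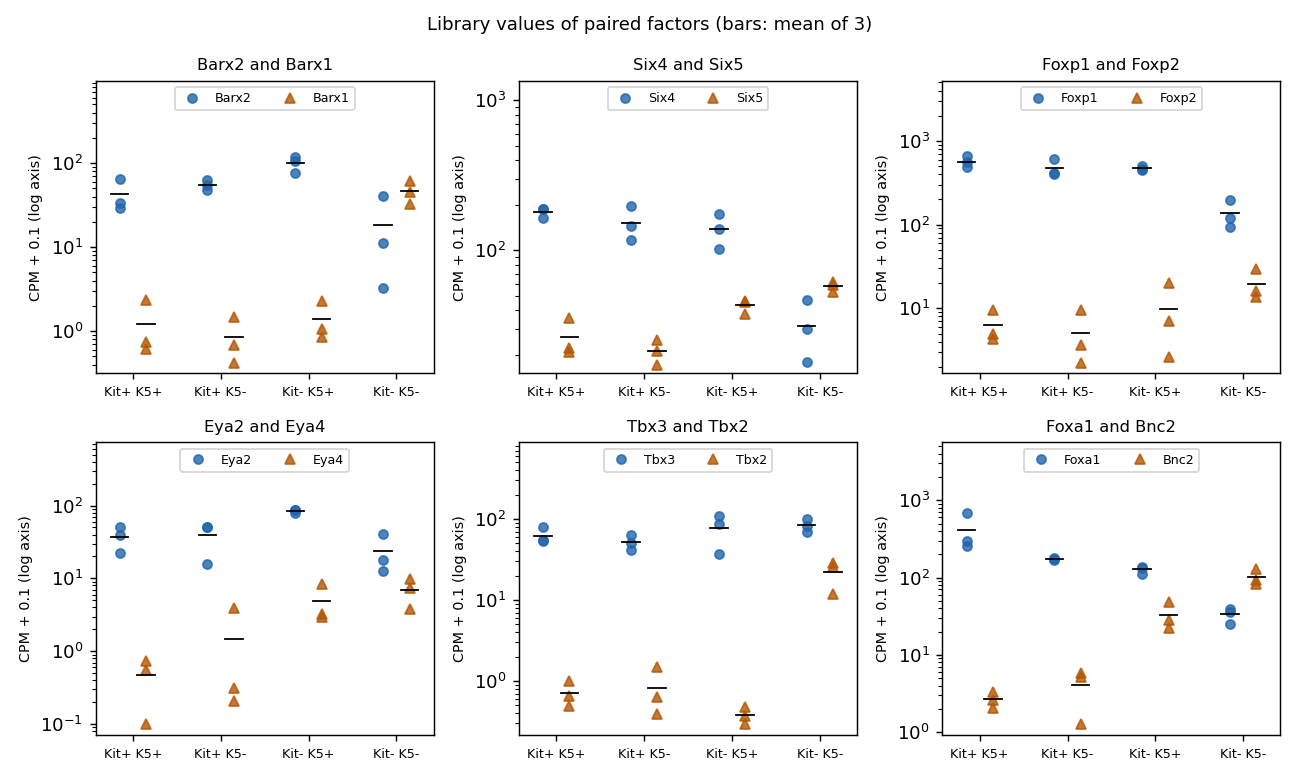
Library values (CPM + 0.1, log axis; points, with bars for the mean of 3) of paired factors in the 4 populations. Divided by exon length in kb, which the plot does not do, Barx2 lay above Barx1 in the 9 marker-positive libraries and below it in the 3 Kit- K5- libraries, Tbx3 was abundant throughout while Tbx2 was at most 1.37 CPM in the 9 marker-positive libraries and at 11.9 CPM or more in Kit- K5-, and Bnc2 was intermediate in Kit- K5+.

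The same Kit- K5- libraries serve as the base of the separate comparisons, so their calls are given side by side and not as an overlap. In Kit- K5+ against Kit- K5-, 7.38% of all genes tested were higher and 9.1% lower, and 12 factors were higher and 14 lower. In Kit+ K5- against Kit- K5-, 10.2% of all genes were higher and 11.1% lower, and 11 factors were higher and 15 lower. Barx2 was at 2.47 ± 0.63 with an adjusted p of 0.0175 in the K5 comparison, and at 1.60 ± 0.62 with 0.0811 in the Kit comparison. Foxc1 was at 2.35 ± 0.54 (adjusted p = 0.00985) in the K5 comparison and at 1.44 ± 0.53 (adjusted p = 0.0672) in the Kit comparison. Eya2 was at 1.84 ± 0.47 (adjusted p = 0.0178) in the K5 comparison and at 0.72 ± 0.46 (adjusted p = 0.304) in the Kit comparison. Barx2, Foxc1 and Eya2 passed in the K5 comparison alone, but with the block on runs, which called 14.3% of all genes higher in the Kit comparison, Barx2 (adjusted p = 0.0295) and Foxc1 (adjusted p = 0.00612) passed there too. Foxi1 was at 2.58 ± 0.98 (adjusted p = 0.0896) in the K5 comparison and at 3.88 ± 0.98 (adjusted p = 0.0127) in the Kit comparison. Irx3 was at 1.18 ± 0.61 (adjusted p = 0.203) in the K5 comparison and at 2.15 ± 0.61 (adjusted p = 0.0222) in the Kit comparison. Foxi1 and Irx3 passed in the Kit comparison alone. Kit+ K5- cells were not tested directly against Kit- K5+ cells, so none of these genes is shown to differ between the comparisons. On the lower side Msx1 passed in the K5 comparison alone, and Six5 and Twist2 in the Kit comparison alone. Several of these calls rested on single libraries. In the K5 comparison Barx2 was lost without Kit- K5- replicate 2 and was at 3.81 without replicate 3, Eya2 was lost without Kit- K5- replicate 1 or 2, and Msx1 without any 1 of the 3 Kit- K5- libraries or of replicates 1 and 2 of Kit- K5+ (largest adjusted p = 0.0786 for Barx2, 0.0851 for Eya2 and 0.109 for Msx1). In the Kit comparison Foxi1 was lost without Kit+ K5- replicate 2, Irx3 without that library or Kit- K5- replicate 1 or 3, and Twist2 without any 1 of 9 libraries, all but those of Kit- K5+ (largest adjusted p = 0.0507 for Foxi1, 0.0762 for Irx3 and 0.16 for Twist2).

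Kit+ K5+ cells were compared with Kit- K5+ cells, where Kit alone separates the sort. Of all genes tested 0.658% were called, and 2 of the 41 factors were, Foxa1 higher and Bnc2 lower. Foxa1 had 682, 293 and 258 CPM among Kit+ K5+ libraries and 133, 136 and 112 CPM among Kit- K5+ libraries, without overlap and with a difference of 1.69 ± 0.32, adjusted p = 0.0407. That call ended when any 1 of 6 libraries was left out (replicates 1 and 2 of Kit+ K5+, all 3 of Kit- K5+ and replicate 2 of Kit- K5-), with a largest adjusted p of 0.119 and differences of 1.15 to 1.97, and Kit+ K5+ replicate 1 lay far above its fellows. Bnc2 had 1.94, 2.51 and 3.23 CPM among Kit+ K5+ libraries and 28.5, 22.1 and 48.2 CPM among Kit- K5+ libraries, a difference of -3.69 ± 0.49, adjusted p = 0.0111. Without Kit+ K5+ replicate 1 the adjusted p of Bnc2 was 0.0546. With the block on runs, which called 4.63% of all genes, Eya2 (adjusted p = 0.0455) and Eya4 (adjusted p = 0.0463) were also lower in Kit+ K5+. Eya4 averaged 0.369 ± 0.333 CPM among Kit+ K5+ and 4.75 ± 3.02 CPM among Kit- K5+ libraries (SD, n = 3 each). DESeq2 called 4 factors, beside 2.83% of all genes, a fit without the count minimum 7, beside 3.33%, the compared groups alone 1, beside 0.502%, and scaling to epithelium genes 1, beside 1.09%. With the compared groups alone and with scaling to epithelium genes the call of Foxa1 ended, while Bnc2 stayed called.

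The level of Bnc2 in Kit- K5+ was set beside that of the mesenchyme markers. Bnc2 stood at 2.52% of its Kit- K5- mean in Kit+ K5+ cells, 3.91% in Kit+ K5- cells and 32.4% in Kit- K5+ cells. The 16 mesenchyme markers had medians of 3.12% in Kit+ K5+ cells, 2.99% in Kit+ K5- cells and 3.37% in Kit- K5+ cells, where they ranged from 1.90% to 55.7% (Fstl1), 15 of 16 lying below Bnc2. None of the 16 was called between Kit+ K5+ and Kit- K5+. Basal duct markers, which include Krt5 and Trp63, summed to 1419 to 3087 CPM in Kit- K5+ and 200 to 421 CPM in Kit- K5-. They summed to 877 to 1236 CPM in Kit+ K5+ and 448 to 1112 CPM in Kit+ K5-. Their part in the level of Bnc2 was not tested. Six5, at 74.1%, Eya4, at 68.8%, and Foxp2, at 49.9%, stood above Bnc2 in this share. Prrx2, at 29.9%, Twist2, at 16.05%, and Tbx18, at 15.3%, lay above at least 14 of the 16 markers, and 8 others, among them Prrx1 at 4.56%, lay above 10. The 3 Kit- K5+ libraries held 42, 1 and 1 counts of Prrx2 and 0, 0 and 9 of Twist2. The shares of Prrx2 and Twist2 thus each rested on 1 library. Nr2f1, at 2.50%, and Barx1, at 2.81%, lay above 4 and 5 of them, while Alx4, at 1.75%, Tbx2, at 1.27%, and Dlx2, at 0, lay below all 16. For the 20 mesenchyme-side factors the medians were 3.14% in Kit+ K5+ cells, 5.95% in Kit+ K5- cells and 8.24% in Kit- K5+ cells. These factors were placed by being higher in Kit- K5-, where the mesenchyme markers were high too, so that likeness is not separate support. Over the 3 marker-positive populations the factor medians ran from 3.14% to 8.24% and the marker medians from 2.99% to 3.37%. The part of the mesenchyme markers in each factor's level was not tested.

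**Figure D4:**
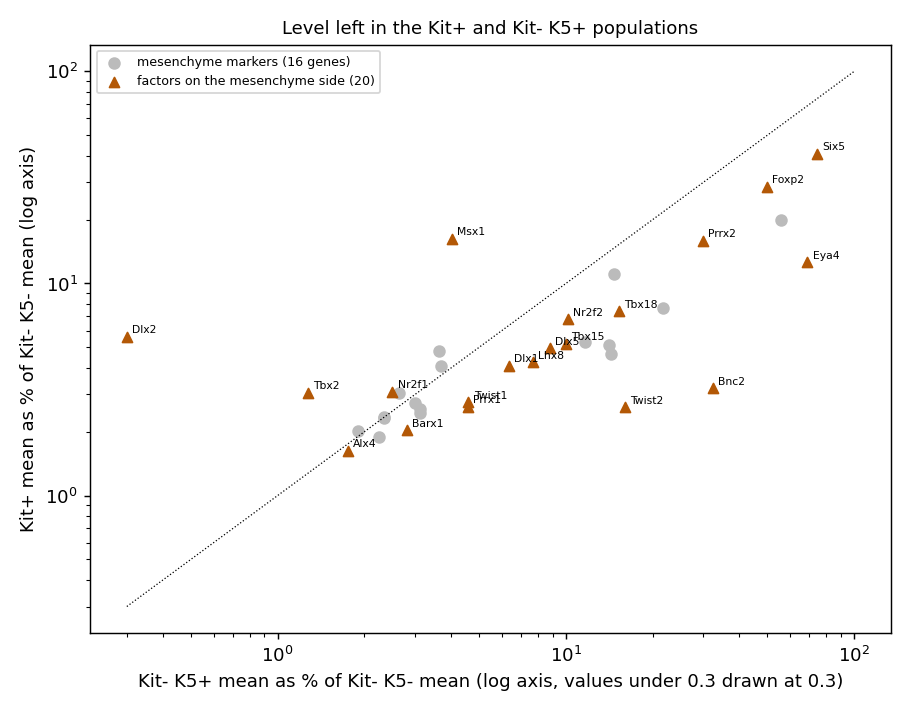
Mean CPM of the Kit+ populations (vertical) and of Kit- K5+ (horizontal), each as a percentage of the Kit- K5- mean on log axes, for the 20 mesenchyme-side factors (triangles) and 16 mesenchyme markers (grey circles), with a dotted line of equality. Bnc2 lies far right of the line at 32.4% in Kit- K5+, and Dlx2, at 0 in Kit- K5+, is drawn at the left edge.

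Kit+ K5+ cells were also compared with Kit+ K5- cells, where Venus alone separates the sort. Of all genes tested 0% were called, and 0 of the 41 factors were. At an unadjusted p under 0.05 there were 1161 genes in all and 4 of the factors (Dlx1, Foxa1, Irx2 and Nr2f2), and DESeq2 called 1 factor, Foxa1, beside 0.341% of all genes. A fit without the count minimum called 2 factors, beside 0.874% of all genes. Foxa1 averaged 411 ± 236 CPM among Kit+ K5+ and 173 ± 5.47 CPM among Kit+ K5- libraries (SD, n = 3 each), with a difference of 1.25 ± 0.31, adjusted p = 0.303. Dlx1 had 0.0922, 0.193 and 0 CPM among Kit+ K5+ and 3.38, 0.316 and 0.874 CPM among Kit+ K5- libraries, and its difference of -3.75 ± 1.04 did not pass (adjusted p = 0.359).

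Whether the K5 difference depended on Kit was tested as an interaction, the K5 difference among Kit+ cells minus that among Kit- cells. A gene that stands apart in Kit- K5- alone also gives such an interaction, so this test is not separate from the placement. Of all genes tested 2.81% were called above 0 and 1.21% below, and of the 41 factors 7 were above and 4 below. Prrx1 is an example above 0. Its K5 difference was -0.31 ± 0.40 among Kit+ cells and -4.46 ± 0.44 among Kit- cells, an interaction of 4.15 ± 0.57, adjusted p = 8.44e-04. Irx2 is an example below 0, with 0.59 ± 0.26 among Kit+ and 2.77 ± 0.28 among Kit- cells (-2.18 ± 0.37, adjusted p = 0.00443). In the same test 13 of 16 mesenchyme markers were called above 0 and 6 of 18 general epithelium markers below 0, and their part in these results was not tested. A fit without the count minimum called 18 factors, beside 5.38% of all genes, and scaling to epithelium genes 17, beside 45.5%. With that scaling all 17 were above 0 and 0 below, beside 44.8% of all genes above and 0.769% below, as the median over all genes moved to 1.60, and Irx2 stood at -0.45, not called. With the block on runs 7 were above 0 and 8 below, beside 4.84% and 3.49% of all genes.

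The tables held 68 further genes of these families outside the list, of which 34 were tested. Of these 3 were higher in the marker-positive populations, 6 lower and 25 not called, with a median of 0.04, against 0.01 over all genes tested. Among the most abundant of them Foxj3, Foxk1, Foxk2, Foxo3 and Foxm1 were not called. Foxi3, at 3.27 ± 0.99, and Dlx4, at 2.62 ± 0.90, were higher and are named after their values were seen.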

How the data were processed

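Per the labels' protocols, total RNA of cells sorted from glands at embryonic day 15 was sequenced as single reads of 50 nt, and the authors mapped them to GRCm38 with STAR 2.4.2a and counted reads per gene with featureCounts. Versions per the submitters' processing notes were featureCounts 1.4.6-p3 and Picard 1.129, beside FastQC and the build GRCm38.p3. No strand setting or annotation release is stated in the sources used here. The authors deposited whole-number counts, and 0 cells differed between the joint matrix and the tables of single libraries. Columns without a sample numbered 0.

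Counts were fitted in R 4.3.3 with edgeR 4.0.16 (filterByExpr, about 1.11 CPM in 3 libraries; TMM; 1 coefficient per population; 8 residual degrees of freedom; common biological coefficient of variation 0.437). All 54 symbols matched GENCODE M21, which gave positions and exon lengths. Adjustment was over 17030 genes. In simulated data for the marker-positive mean against Kit- K5- (16386 genes), 47 of 100 genes changed 2-fold and 100 of 100 changed 4-fold were recovered, with 7 false calls. The changed genes were drawn from those averaging 10 CPM or more, with the spread of each gene taken from the trend over all genes. Recovery of factors below 10 CPM, or with wider scatter, was not examined.

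Library numbers 1 to 4, 5 to 8 and 9 to 12 form 3 runs, each with every population. The labels do not say what a run shares. Libraries of a run deviated together from their population means, at r of 0.108 to 0.408 in the 4 pairwise comparisons, so the pairing comes from the data, and a fit with the run as a block was an alternative. Others were RLE, upper-quartile and epithelium scaling, DESeq2 1.42.0, other filters, fits of the compared groups alone and fits without each library.

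The list of factors, the 13 marker lists and the rule for naming genes were chosen with earlier results of these data known. The rule gave every library's value for up to 30 factors past 0.05 in any comparison and for those of 10 CPM or more in any population that passed none, named paralogues on opposite sides, and named 6 related genes by highest mean, of which 1 is not reported here.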

Additional observations from a re-analysis of the deposited data

Results flagged for a closer look

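The 11 factors of the interaction test are those whose K5 difference among Kit+ cells differed from that among Kit- cells by a test of the difference itself (edgeR's quasi-likelihood test, adjusted over 17030 genes). Each of the 11 had also been called in the marker-positive mean against Kit- K5-. A gene that stands apart in Kit- K5- alone moves this interaction too, so these calls are not separate support. Above 0 were Nr2f2 at 3.79, Prrx1 at 4.15, Nr2f1 at 5.15, Alx4 at 5.24, Barx1 at 5.70, Tbx2 at 5.88 and Dlx2 at 7.69 on the log2 scale, the last fitted against a population with 0 counts and so dependent on the prior count. Below 0 were Irx1 at -2.26, Irx2 at -2.18, Six4 at -1.90 and Foxp1 at -1.53, none of them called under scaling to epithelium genes, where the median over all genes was 1.60 and Foxp1 lay at 0.085. Leaving out 1 library ended the call of Dlx2 (Kit- K5- replicate 2), and the calls of Irx1, Six4 and Foxp1 each ended without any 1 of 8 or 9 libraries (8 for Irx1 and Six4).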

How the results depend on the processing

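Under RLE or upper-quartile factors, the block and DESeq2, and under the stricter filter where still tested, the factors called against Kit- K5- kept their direction, and none of the counts against Kit- K5- moved by over 1.5 times. Some calls still ended. In Kit+ K5- against Kit- K5-, Twist2 was lost under upper-quartile factors and Six2 with the compared groups alone. Six2 was also lost there without any 1 of 8 libraries (largest adjusted p = 0.117). In Kit- K5+ against Kit- K5-, Msx1 was lost without a filter. Scaling to general epithelium genes left 1 factor higher in the marker-positive mean, 1 in Kit- K5+ and 0 in Kit+ K5- against Kit- K5-, with 25 lower in Kit+ K5-, 1 called in Kit+ K5+ against Kit- K5+ and 17 in the interaction. It turned Barx2 to -0.083, Foxp1 to -0.026, Foxp4 to -0.54, Irx3 to -0.16 and Six2 to -0.28 in the marker-positive mean, Foxp4 to -0.62 in Kit- K5+, Foxp1 to -0.18, Foxp4 to -0.60 and Six2 to -0.73 in Kit+ K5-, and Foxp1 to 0.085 in the interaction. This scaling sets the 18 epithelium genes level by construction and moved the median over all genes to -1.96 in the marker-positive mean and 1.60 in the interaction. For Kit+ K5+ against Kit- K5+, where 2 were called, DESeq2 called 4, no filter 7, the replicate block 4 and the compared groups alone 1. For Kit+ K5+ against Kit+ K5-, where 0 were called, DESeq2 called 1 and no filter 2. For the interaction, where 11 were called, no filter called 18. The cause was not tested.

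Leaving out each library gave 11 to 14 higher and 17 to 23 lower in the marker-positive mean, 9 to 12 higher and 10 to 14 lower in the Kit- K5+ comparison, 8 to 12 higher and 14 to 18 lower in the Kit+ K5- comparison, 0 to 2 called for Kit among K5+ cells, 0 to 0 for K5 among Kit+ cells, and 7 to 14 in the interaction, the lowest without Kit- K5- replicate 2. Of 33 placed factors 27 stayed called whichever library was left out; the exceptions were Barx2, Eya4, Foxp2, Irx3, Msx1 and Prrx2. Genes under about 1.11 CPM could not be placed at this depth.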
